A study of Homo sapiens with 3 samples.

Results

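The highest-scoring capture targets were 1763 genomic intervals, all of those on chromosomes 1 to 22 whose deposited score was 100 or more. They made up 0.485% of the 363390 autosomal targets in a list of 377858, and they were chosen by the score itself. Chromosome X held another 83 targets at such scores among 12854, and chromosome Y held none. The list is the probe design of an experiment on K562, an established human leukaemia line with erythroid and myeloid features, in which RNA from the ends of introns was captured and sequenced to locate branchpoints. All 3 libraries are biological replicates of K562 cells with no treatment named in the labels, made from ribosome-depleted total RNA with ERCC spike-in RNA, and they form 1 group. The labels give no other cell line, so no comparison of conditions exists. The list is shared by the 3 libraries and holds no value for any of them, so there is no replicate error, and the depth behind a score is unknown. No label or header says what the score measures. It is a whole number from 0 to 125 without a unit, and a high score below means only a high value in that column.

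Splicing removes an intron by cutting at both of its ends. The 5′ end of the intron, which nearly always begins with GT, is joined to a branchpoint base a short way upstream of the 3′ end, and the intron then leaves as a lariat that ends in AG. A stretch rich in pyrimidines usually lies between the branchpoint and that AG, where the splicing factor U2AF binds. Probes against both intron ends catch the reads that cross the lariat joint.

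Introns too short to hold a pair of separate end targets appear in the list as a single interval. Of the high-scoring targets, 287 were whole introns, 683 were single 3′ ends and 380 were single 5′ ends, by the gene models described below. The following 4 whole introns had scores of 124 or 125 and are shown because they hold the 5′ end, the branchpoint region and the 3′ end in 1 target. Each line gives the hg19 interval and the intron on the strand of its gene, with the first and last bases in capitals. The sequences were read from GENCODE release 29 transcripts that retain the intron.
AES chr19:3054039-3054117: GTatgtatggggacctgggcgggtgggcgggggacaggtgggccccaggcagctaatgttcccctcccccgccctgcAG
PSME3 chr17:40985692-40985792: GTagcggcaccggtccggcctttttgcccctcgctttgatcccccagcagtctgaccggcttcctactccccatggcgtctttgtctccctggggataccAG
SHKBP1 chr19:41083349-41083462: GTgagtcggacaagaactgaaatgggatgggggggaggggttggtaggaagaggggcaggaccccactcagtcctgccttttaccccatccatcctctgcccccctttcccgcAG
CD33 chr19:51728412-51728473: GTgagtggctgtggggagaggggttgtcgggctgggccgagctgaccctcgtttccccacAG

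AES, a co-repressor of the TLE family, scored 125 over 79 nt and was followed by a target at 52 and preceded by one at 0. PSME3, an activator subunit of the proteasome, scored 125 over an intron of 102 nt with neighbours at 2 and 1. The SHKBP1 intron also scored 125 and lay between targets at 37 and 24. A second SHKBP1 intron, at chr19:41089393-41089506, had the same interval width of 114 nt and the same score, with neighbours at 53 and 7. CD33, a sialic acid-binding receptor of myeloid cells, had the shortest of these introns, 62 nt, which scored 124 beside targets at 2 and 1. The first SHKBP1 intron thus had neighbours well above 0, whereas those of PSME3 and CD33 were near 0. These 4 introns were 60.9% to 70.9% G and C.

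The next 4 targets were single 3′ ends of 100 nt and are shown because this was the commonest kind among the high scores. Their final AG is in capitals.
CSNK1D chr17:80206891-80206990: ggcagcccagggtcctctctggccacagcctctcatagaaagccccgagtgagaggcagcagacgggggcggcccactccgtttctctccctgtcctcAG
TMEM94 chr17:73489472-73489571: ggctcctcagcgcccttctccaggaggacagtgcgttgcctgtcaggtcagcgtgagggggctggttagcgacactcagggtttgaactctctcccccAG
DUSP22 chr6:350722-350821: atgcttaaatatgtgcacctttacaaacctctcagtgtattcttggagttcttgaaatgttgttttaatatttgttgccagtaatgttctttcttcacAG
USP14 chr18:210286-210385: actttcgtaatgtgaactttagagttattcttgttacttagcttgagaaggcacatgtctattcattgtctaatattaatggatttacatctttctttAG

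CSNK1D, a kinase of the casein kinase 1 family, scored 123 at the end of a 416 nt intron. TMEM94 scored 123 at the end of a 388 nt intron. DUSP22, a phosphatase, scored 121 after a 1980 nt intron, and USP14, a deubiquitinase of the proteasome, scored 120 after a 354 nt intron. CSNK1D and TMEM94 were 66.0% and 63.0% G and C in this window, and DUSP22 and USP14 were 33.0% and 30.0%. A score above 119 was thus found on both kinds of base composition. A pair of 5′ ends, with their GT in capitals, shows the other side of the intron. They are printed from the first base of the intron, as the 3′ ends above are printed to its last base. The listed span of introns this long was 1 nt shorter than the intron. The sequences of both kinds of end therefore cannot all match their intervals exactly, and 1 kind may be shifted by 1 base. Which kind this is was not tested.
ATP5F1A chr18:43665978-43666077: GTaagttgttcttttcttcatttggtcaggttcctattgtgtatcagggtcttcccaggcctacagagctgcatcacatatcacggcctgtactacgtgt
AURKB chr17:8110393-8110492: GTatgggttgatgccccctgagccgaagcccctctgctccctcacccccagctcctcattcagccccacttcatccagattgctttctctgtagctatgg

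ATP5F1A, the alpha subunit of the mitochondrial ATP synthase, scored 124 at the start of a 1458 nt intron, and 1 number was missing in the list directly after it. AURKB, a kinase of chromosome segregation, scored 120 at the start of a 287 nt intron. The 3′ end of that AURKB intron was not listed, and 1 number was missing there. AURKB held 2 more high scores, a whole intron at 124 and a 3′ end at 125.

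Intron sequence could be read for the few targets whose intron a transcript retains. All of the high-scoring ones read lay in introns that begin with GT and end with AG, as did 96.9% to 97.5% of the other targets read in the same way. The median G and C content was 67.0% in 35 high-scoring whole introns, against 62.8% in 560 other whole introns. It was 59.0% in 22 high-scoring 3′ ends, against 54.0% in 616 others, and 58.0% in 11 high-scoring 5′ ends, against 57.0% in 582 others. Pyrimidines filled a median 80% of the last 20 bases before the AG in high-scoring whole introns and 75% in the others. At 3′ ends these medians were 77.5% and 75%. The letters CTNAC, searched on the strand of the gene in the last 60 bases as a simple form of the human branchpoint motif, stood in 15 of the 35 high-scoring whole introns (42.9%), against 37.5% of the others. They stood in 5 of the 22 high-scoring 3′ ends (22.7%), against 27.3% of the others. These are descriptions of a small and selected set, and a match is not a mapped branchpoint.

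Towards the top the counts of targets declined unevenly, with no separate peak, and stopped at 125. Steps of 5 scores held 499 targets from 90 to 94, 436 from 95 to 99, 416 from 100 to 104 and 302 from 120 to 124. The score of 124 had 53 targets and 125 had 54, and no autosomal target scored higher. Why the column ends there is not given. The median of the high-scoring targets was 111. Together they held 7.97% of the summed score of the autosomes on 179.9 kb of sequence. At the threshold, 163 targets scored 100 or 1 more, of which 74.2% were exactly 100 nt wide and 18.4% lay beside a missing number. The 160 targets at 98 or 99 just outside it had shares of 71.2% and 23.1%. The threshold thus cuts through a smooth range.

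The 10 first of the targets at 125, in genome order, showed no single setting. DENND4B, which acts on Rab GTPases, had a 3′ end between targets at 6 and 9. IVNS1ABP had a 5′ end between 28 and 61, and ADCY3, an adenylyl cyclase, had a 5′ end between 78 and 11 with 1 number missing after it. KPNA4, an importin, had a 3′ end between 15 and 1. RPL22L1, a paralogue of the ribosomal protein L22, had a 3′ end between 1 and 115. TFRC, the transferrin receptor through which red cell precursors take up iron, had a 3′ end between 45 and 39. The other 4 received no gene. They lay at chr1:149805432-149805531, chr1:161172272-161172371, chr3:135969401-135969501 and chr4:59451-59550, the last being the first listed target of its chromosome, with 2 numbers missing before it.

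Chromosome 19 had the highest density of high scores. It held 261 of them, which is 14.8% of the high-scoring targets on a chromosome that held 5.085% of all autosomal targets. Per 1000 targets, chromosome 19 had 14.1, chromosome 17 had 8.16 (161 in all) and chromosome 16 had 7.89 (116 in all). At the low end were chromosome 13 with 1.32 (10 in all), chromosome 2 with 1.80 (54 in all) and chromosome 18 with 2.03 (12 in all). The median chromosome had 4.04, the autosomes together had 4.85, and without chromosome 19 they had 4.355.

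**Figure D1:**
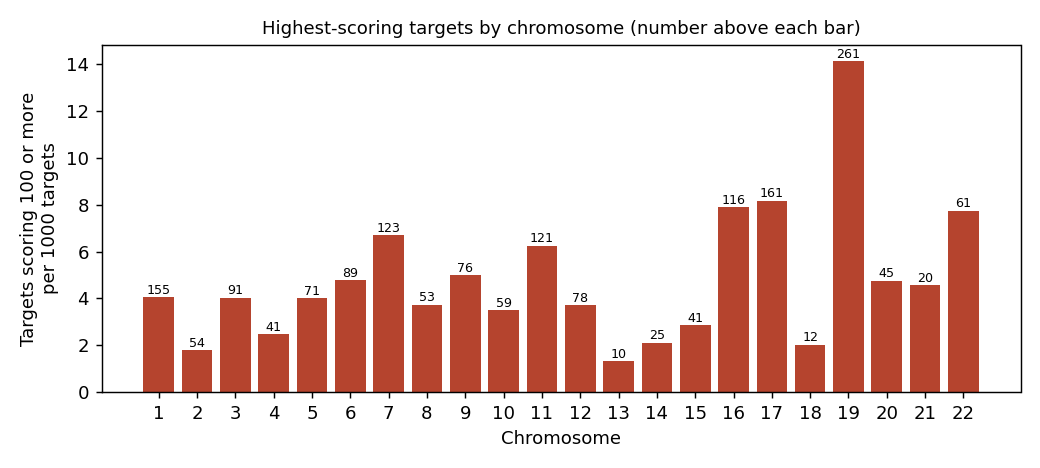
Targets scoring 100 or more per 1000 listed targets (y axis) on each autosome (x axis), with their number above each bar. Chromosome 19 stands at 14.1, above chromosome 17 at 8.16, and chromosome 13 has the lowest value, 1.32.

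Along the chromosomes the high scores lay both alone and in company. Linking those at most 100 kb apart gave 920 groups. Of these, 537 were single targets (30.5% of the high scores), 186 were pairs, and 197 had at least 3 and together held 854 targets (48.4%). The median distance to the nearest other high score was 15560 nt. It was at most 300 nt for 125 of them (7.09%), at most 1000 nt for 247 (14.0%), at most 10000 nt for 797 (45.2%) and at most 1000000 nt for 89.2%. In the order of the list, 242 (13.7%) stood directly next to another high score. They formed 106 runs of 2 and 10 runs of 3, and no run was longer. Among the runs of 3 were CDC20, an activator of the anaphase-promoting complex, with scores of up to 115, and FADS3, a fatty acid desaturase family member, with 102, 113 and 124. The histone variant gene H2AFV had scores of 109, 121 and 106. These runs were picked out after their values were seen.

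Of 2675 windows of 1 Mb that held a target, 650 (24.3%) held a high score. The 10 fullest windows held 166 of the high scores (9.42%) and 1.43% of the autosomal targets. The fullest was chr19:50000001-51000000 with 23 of 659 targets, then chr19:10000001-11000000 with 21 of 596 and chr19:1000001-2000000 with 20 of 536. Chromosome 7 followed with 17 of 347 targets in chr7:102000001-103000000. Windows on chromosomes 8 (145000001 to 146000000) and 17 (73000001 to 74000000) held 16 each.

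The 15 largest groups held 139 high scores (7.88%) over spans of 58.1 to 284.8 kb. Of these groups, 5 lay on chromosome 19, 3 on chromosome 17, 2 each on chromosomes 6 and 16, and 1 each on chromosomes 7, 11 and 22. Between 3.67% and 17.5% of the targets inside each span were high scores. Every group therefore also held many targets below 100.

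**Figure D2:**
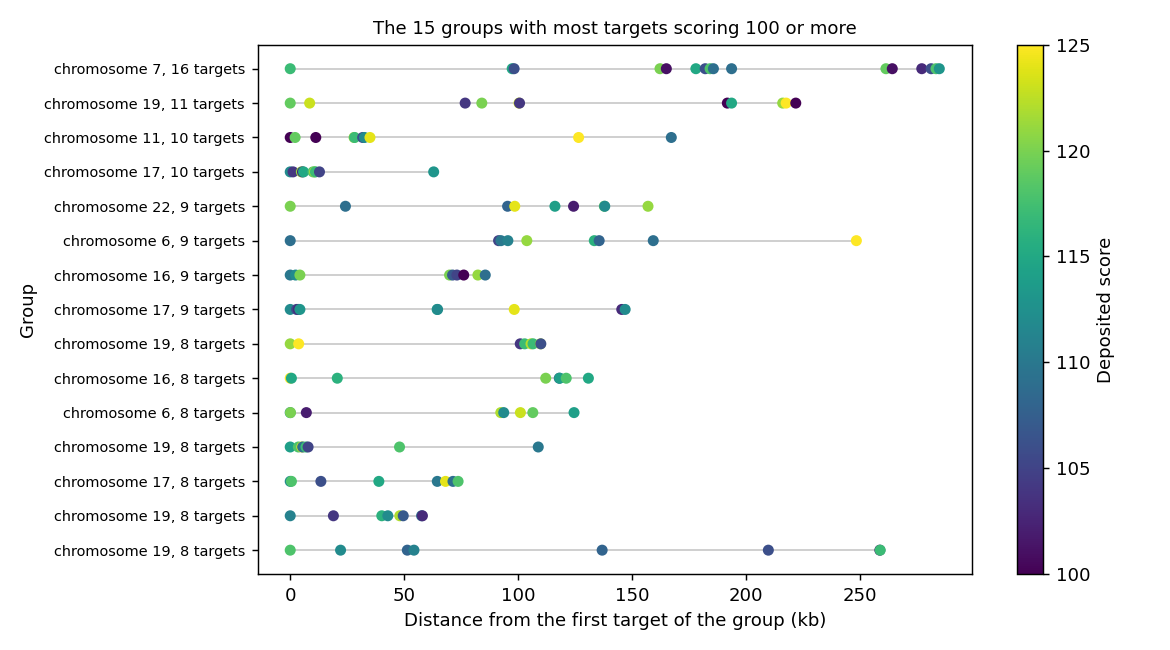
The 15 groups with the most high-scoring targets, one row each named by chromosome and number, with each target as a point at its distance in kb from the first one (x axis), coloured by score from 100 to 125. The chromosome 7 group is spread over 284.8 kb, and the UNC13D group has 10 points within 63.0 kb.

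The largest group was chr7:102016771-102301592, with 16 of 160 targets. It held SPDYE2 and SPDYE2B, near-identical copies of a gene of the Speedy family of cell cycle regulators. SPDYE2 had 3′ ends at 115, 106, 118 and 109, and SPDYE2B had 3′ ends at 103, 106, 118 and 113, in the same order. Further pairs with no gene repeated between the copies, at 120 and 119, and as 196 nt intervals of equal score near 100. How reads or probes from copies were treated in the score is not given, so these values cannot be assigned to 1 copy.

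On chromosome 19, the group at chr19:39114617-39336491 (11 of 110 targets) held ACTN4, a non-muscle alpha-actinin, at 120, 123 and 104, with EIF3K, a subunit of translation initiation factor 3, and ECH1, a mitochondrial and peroxisomal isomerase. The group at chr19:50060251-50170275 (8 of 76) held IRF3, the interferon regulatory factor, with 3′ ends at 117, 122 and 117, beside BCL2L12, NOSIP and SCAF1. The group at chr19:10398084-10506979 (8 of 81) held the adhesion molecules ICAM5 and ICAM3 and the kinase chaperone CDC37. The group at chr19:50862367-50920428 (8 of 61) held POLD1, the catalytic subunit of DNA polymerase delta, with NAPSA and NR1H2. The last of these, chr19:1220272-1479160 (8 of 140), held DAZAP1, MUM1 and the kinase gene STK11, 1 high score each, and 5 targets with no gene.

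On chromosome 17, chr17:73826008-73889031 had 10 of only 57 targets, 9 in UNC13D and 1 in TRIM65. The group at chr17:26902025-27049041 (9 of 184) ran over SPAG5, a spindle protein with 3, KIAA0100 with 2, and ALDOC, RPL23A and SUPT6H with 1 each. The group at chr17:79977258-80051093 (8 of 81) held FASN, the fatty acid synthase, with 4, and DUS1L and RAC3 with 1 each. Its span had 53 missing numbers, more than any other of the 15 groups. On chromosome 16, chr16:88717263-88802916 (9 of 80) held PIEZO1 with 6 and MVD, an enzyme of the mevalonate pathway, with 2. The group at chr16:28726013-28856901 (8 of 58) held ATXN2L with 4, EIF3C with 3 and the mitochondrial elongation factor TUFM with 1.

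On chromosome 11, chr11:62365395-62532653 (10 of 112) held GANAB with 5, MTA2, a subunit of the NuRD complex, with 2, and EML3 and POLR2G with 1 each. On chromosome 22, chr22:19347008-19503956 (9 of 85) held CDC45, a part of the replicative helicase, and UFD1, a cofactor of the VCP segregase, with 3 each. Both chromosome 6 groups lay within the major histocompatibility complex region. One, chr6:31498975-31747384 (9 of 245), held PRRC2A with 4 and VARS, the valyl-tRNA synthetase, with 1 at 125. The readthrough ATP6V1G2-DDX39B had 1. The other, chr6:33163138-33287786 (8 high scores, 7.92% of its targets), held RXRB and WDR46 with 2 each and DAXX, RGL2, SLC39A7 and TAPBP with 1 each. No high score given a gene there fell to an HLA gene, but whether these 2 spans hold any HLA target was not examined. Their lack of one therefore says nothing about HLA genes.

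Target widths differed between the high scores and the rest. Of the high-scoring targets, 74.7% were exactly 100 nt wide, against 87.7% of the other autosomal targets. Intervals of 102 nt and more made up 11.1% of the high scores (196) and 3.31% of the rest, and the share was larger among the high scores on 20 of 22 chromosomes. Intervals of 70 to 95 nt made up 8.57% of the high scores (151) and 3.08% of the rest, with the larger share among high scores on 19 of 22 chromosomes. Intervals of 1 to 69 nt made up 2.44% of the high scores (43) and 2.24% of the rest. Read the other way, 16.1 of 1000 targets of 102 nt and more and 13.4 of 1000 targets of 70 to 95 nt were high scores, but 4.14 of 1000 targets of 100 nt. High-scoring targets ran from 1 to 200 nt. How the score depends on width is not given, and its part in these shares was not tested.

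The gene models show what these widths are. The intron edges of all GENCODE release 29 transcripts of a gene were pooled and placed where most of them fell exactly on target edges of the same chromosome. A placement needed at least 5 matching edges, not necessarily adjacent ones, and more than any other placement. A target with at least 1 matching edge then received that gene. This used lengths only and no coordinates of another build. It gave a gene to 1351 high-scoring targets (76.6%), against 80.9% of the others. Another 75 fitted several genes and 337 fitted none. Among those given a gene, 160 of 168 high-scoring targets of 102 nt and more (95.2%) and 104 of 118 of 70 to 95 nt (88.1%) were whole introns. These shares were not computed for the other targets of such widths, so they cannot be called particular to high scores.

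Whole introns made up 21.2% of the high-scoring targets with a gene and 5.40% of the others, and the share was larger on 20 of 22 chromosomes. Their lengths were alike, with medians of 107 nt for the high scores (62 to 201 nt) and 110 nt for the others. Over all targets whose intron length could be read, whole introns included, the median length was 640 nt for high scores (quartiles 172 to 1720 nt). For the others it was 1722 nt (667 to 4395 nt). This pooled median was shorter for the high scores on 21 of 22 chromosomes. Single ends alone differed less, with medians of 1299 nt against 1951 nt for 5′ ends. For 3′ ends they were 1065.5 nt against 1915 nt. Introns of at most 200 nt made up 28.4% of the introns of high scores and 6.98% of the others.

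The 3′ end carried more of the high scores than the 5′ end. Of 1063 high-scoring single ends, 683 (64.2%) were 3′ ends, against 49.6% of other single ends, and the share was larger on 20 of 22 chromosomes. Intron length could be read for 763 of these high-scoring ends. Among ends with a length, the 3′ share was larger for high scores in each class of intron length. In introns of at most 500 nt it was 68.98% for high scores and 49.6% for the others. In introns of 501 to 2000 nt it was 63.0% and 49.6%, and in longer ones 62.2% and 48.96%. Over all single ends, the 3′ share moved with the score class. It was 48.1% for targets scoring 0, 48.2% for 1 to 9, 55.6% for 10 to 49 and 61.6% for 50 to 99. Within the high scores it was 63.2% for 100 to 109, 64.6% for 110 to 119 and 65.8% for 120 to 125. Among targets with a gene, whole introns made up 3.80%, 4.57%, 10.2%, 16.6%, 20.4%, 22.4% and 20.9% in the same classes. Their share thus did not keep rising within the high scores.

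**Figure D3:**
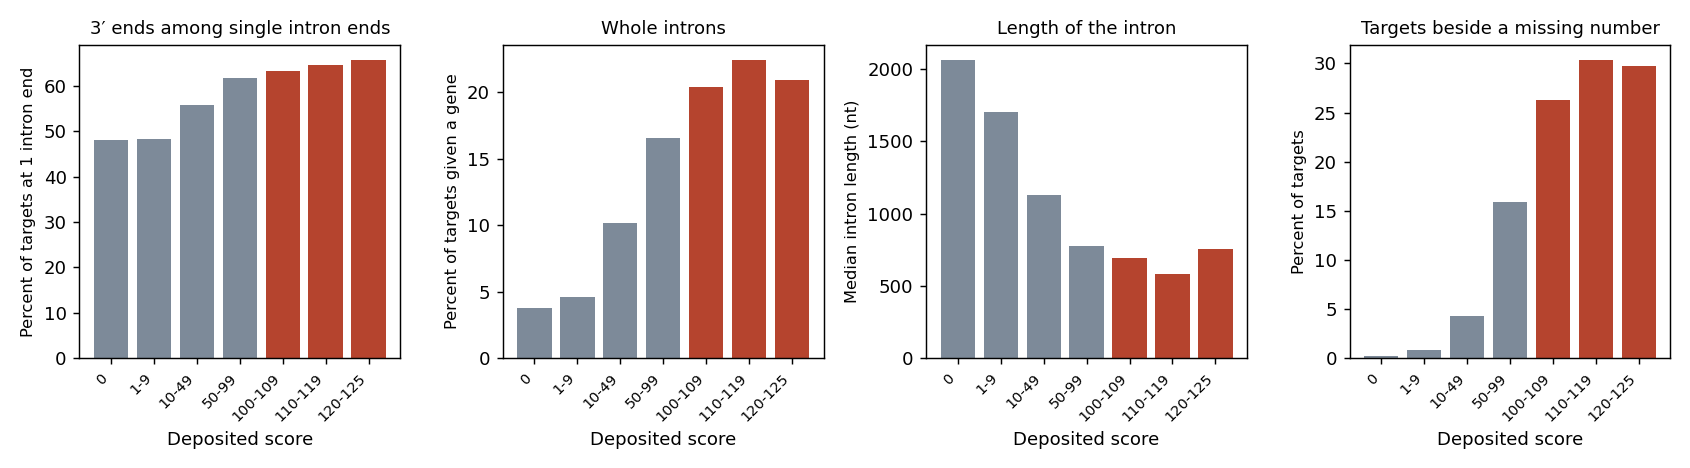
Shares in percent (y axes) over classes of the score (x axes), and median intron length in nt, for properties the score threshold did not use: intron end, whole introns, intron length and place beside a missing number. Among targets given a gene, whole introns make up 3.80% at a score of 0 and 20.9% at 120 to 125. Of all targets in these classes, 0.214% and 29.8% lie beside a missing number.

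The listed neighbours of high scores also scored high, which is a description since they share the measure that chose the targets. Directly before or after a high score, the median was 31 (quartiles 11 to 62), 4.71% were at 0 and 7.15% were themselves at 100 or more. Around other autosomal targets the median was 1 (0 to 6), with 47.2% at 0 and 0.452% at 100 or more. At 2 places away the median was 26, at 5 places 15 and at 10 places 9, where 18.9% were at 0. By distance in bases, the median was 36 for neighbours within 300 nt, 38 from 301 to 1000 nt, 26 from 1001 to 10000 nt, 6 from 10001 to 100000 nt and 0 for the 23 neighbours farther away.

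**Figure D4:**
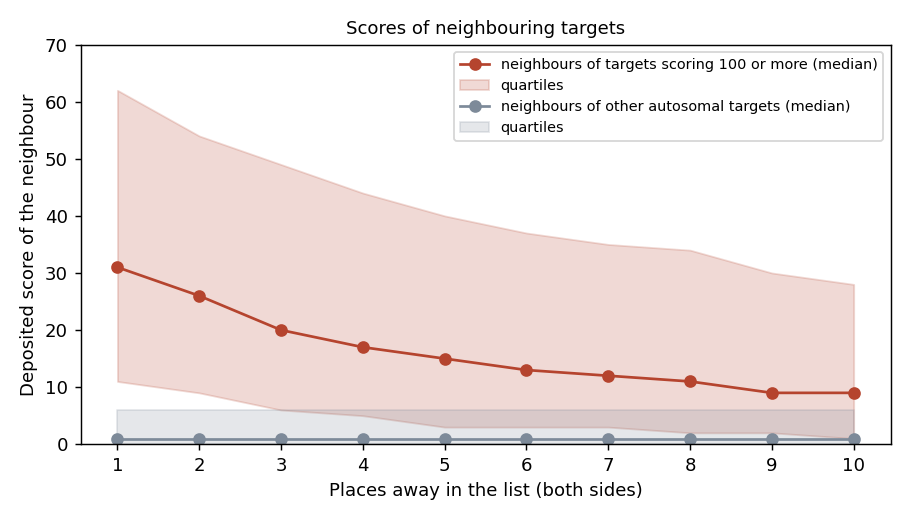
Score of neighbouring targets (y axis) against the number of places away in the list (x axis), for targets scoring 100 or more and for the other autosomal targets, with lines at the median and bands between the quartiles. Beside the high scores the median is 31 at 1 place and 9 at 10 places, and around the other targets it stays at 1.

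Neighbours mostly scored below the high score, as the threshold leaves few targets that could match it. The higher of both neighbours had a median of 53 and the lower a median of 16. For whole introns these medians were 55 and 19, for 3′ ends 49 and 15, and for 5′ ends 61 and 19. A neighbour at 0 stood beside 159 high scores (9.02%), a share not computed for other targets. Counted singly, 4.71% of the direct neighbours of high scores were at 0, against 47.2% of those of other targets. Both neighbours scored under 10 beside 14 of 287 high-scoring whole introns (4.88%), 31 of 683 3′ ends (4.54%) and 29 of 380 5′ ends (7.63%). For the other targets these shares were 59.5%, 77.0% and 73.0% in the same order. Only 7 high scores, with no such count made for other targets, stood between neighbours that were both at 0. They included RAB2A, a Rab GTPase of membrane traffic, at 122 with the next targets 103700 and 34623 nt away. CARD8, an inflammasome sensor, had 124, SRI, a calcium-binding protein, had 120 and the antisense gene PCBP1-AS1 had 100. The other 3 received no gene, and 1 of them, chr7:96810224-96810323, scored 115 with neighbours 37992 and 551185 nt away. These 7 were picked out after their values were seen. The nearer neighbour lay at a median 158 nt from high scores and 141 nt from the other targets. Both neighbours lay within 1000 nt for 36.3% of high scores and 30.1% of the other targets, and within 10000 nt for 85.8% and 79.4%.

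The opposite end of the same intron could be followed where the list held both. For 171 high-scoring 5′ ends the 3′ end of the same intron had a median score of 44 (quartiles 22 to 77.5), and 16 of these were at 100 or more. For 364 high-scoring 3′ ends the 5′ end had a median of 33 (15 to 62), and 19 were at 100 or more. The opposite ends of other targets had medians of 1 and 0 in the same order. Of these, 0.401% and 0.174% were at 100 or more, against 9.36% and 5.22% for the high scores. The opposite end was not listed for 29.9% of high scores that had one in the gene model, against 10.9% of the others. For 5′ ends this share was 37.4% against 11.1%, and for 3′ ends 25.7% against 10.6%.

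Numbers missing from the running count of targets were common beside high scores. A number was missing directly before or after 503 high-scoring targets (28.5%), against 5284 of the others (1.46%), and the share was larger on all 22 chromosomes. By score it was 0.214% at 0, 0.837% at 1 to 9, 4.27% at 10 to 49 and 15.9% at 50 to 99. Within the high scores it was 26.3% at 100 to 109, 30.4% at 110 to 119 and 29.8% at 120 to 125. Numbers were missing on both sides of 76 high scores. The labels state that regions of high transcription in public K562 data were left out of the design, and whether a missing number marks such a region was not tested.

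The autosomes had 4500 missing numbers in 3125 breaks, of which 545 breaks (17.4%) with 894 numbers touched a high score, 34 of them on both sides. Of the 545 breaks, 365 (67.0%) lacked 1 number, 107 lacked 2, 34 lacked 3 and 39 lacked more, whereas 77.6% of the other breaks lacked 1. Breaks of 8 numbers preceded targets in DDX5 (111), an RNA helicase, in HNRNPDL (119), an RNA-binding protein, and in FASN (110). Another break of 8 followed PTOV1 (108). SNRNP70, the U1 snRNP protein that meets the 5′ end of introns, had targets at 124 and 108 on the sides of a break of 5 numbers.

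Breaks inside genes were read against the intron ends that the list lacks. Of the 545 breaks, 281 lay inside 1 gene, and 280 of these spanned at least 1 intron end of GENCODE release 29 that was not listed (99.6%). Among gaps beside a high score inside 1 gene with no number missing, 410 of 1870 (21.9%) spanned such an end. Away from high scores, 1117 of 1121 breaks inside 1 gene (99.6%) did, and 12.2% of the gaps with no number missing. The shares at breaks were thus alike beside high scores and elsewhere. The unlisted ends beside high scores were 365 5′ ends and 407 3′ ends. In 92 breaks of 1 number that held exactly 1 unlisted end, this was a 3′ end in 60 and a 5′ end in 32. The same split was not read at breaks away from high scores, so it cannot be called particular to them. Which step of the design left these ends out was not tested.

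High scores fell in 913 of 16887 genes given a target (5.41%), of which 638 held 1, 168 held 2, 73 held 3 and 34 held at least 4. Protein-coding genes held 98.1% of the high scores with a gene, against 91.5% of the other targets with one. The genes that held a high score had 18507 targets, of which 7.30% were high scores. Their other 17156 targets had a median score of 18, and 6.58% were at 0, whereas targets in genes without a high score had a median of 1. The score chose these genes too, so this is a description only.

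The 25 leading genes held 122 high scores among 694 targets, namely 56 3′ ends, 26 5′ ends and 40 whole introns. The median target score in a gene ran from 25 in FLNC to 102 in PTP4A3, and 24 of the 25 genes had a missing number. The list carries only a plus sign for every target, so where genes overlap on opposite strands a score cannot be assigned to 1 of them.

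UNC13D, which primes cytotoxic granules for release, led with 9 high scores among 31 targets on chromosome 17. They ran from 103 to 121, and 4 of them were whole introns of 73 to 185 nt, at 104, 115, 118 and 121. Its other targets had a median of 62.5 and a lowest score of 8, so high and low scores stood side by side within the gene. ADAMTSL4, a secreted protein of the ADAMTS-like family, had 6 of 15, of which 5 ran from 104 to 117 and the other stood just above 100, and no target under 34. ICAM5, an adhesion molecule known from forebrain neurons, had 5 of 10, with 118, 124, 109 and 117 and a lower one, against 31 to 63 in the other 5. PTP4A3, a phosphatase, had 102, 121, 118 and 120 among 7 targets, while its first listed 5′ end had 0.

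Among genes of protein folding, DNA replication, metabolism and translation, HSPA9, the mitochondrial HSP70 chaperone, had 5 of 15 targets at 125, 120, 109, 125 and 115. MCM3, a subunit of the replicative helicase, had 6 of 30, of which 5 were 3′ ends, from 103 to 124. POLD1 had 4 of 31, from 107 to 122. HK1, the hexokinase of the first step of glycolysis, had 5 of 34 with up to 119, all at 3′ ends. FASN had 4 of 18 at 110, 124, 109 and 118, and 29 numbers were missing within it, the most of the 25 genes. EIF3B, a subunit of translation initiation factor 3, had 4 of 13 from 108 to 123. EIF3CL, whose near-identical copy EIF3C lies on the same chromosome, had 4 of 18 from 106 to 119, while EIF3C had 3 of 16 from 115 to 125. GANAB, a glucosidase that trims glycans in the endoplasmic reticulum, had 5 of 20 from 106 to 124, 4 of them whole introns.

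RNA-binding proteins among them were TAF15 of the FET family, with 5 of 20 from 104 to 113, and several with 4 each. The nucleolar helicase DDX21 had 4 of 21 from 106 to 122, ATXN2L had 4 of 22 from 108 to 120, and the nucleolar protein NOC2L had 4 of 21 from 102 to 122. Genes of the cytoskeleton and the membrane included TLN1, which links integrins to actin, with 6 of 69 at 122, 107, 124, 123, 118 and 123, of which 5 were whole introns. FLNC, the filamin known from muscle, had 5 of 61 from 109 to 117. The formin DIAPH1 had 4 of 40 from 104 to 123. PIEZO1, the mechanically gated channel known from red cells, had 6 of 43 from 100 to 121. SLC29A2, a nucleoside transporter, had 5 of 15 with up to 118, and ESYT1, a tether between endoplasmic reticulum and plasma membrane, had 5 of 26 from 106 to 124. GDI2, which retrieves Rab GTPases, had 5 of 18 with up to 116 and was the 1 gene of the 25 with no missing number. NUP210 of the nuclear pore membrane had 4 of 72 from 103 to 121.

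**Figure D5:**
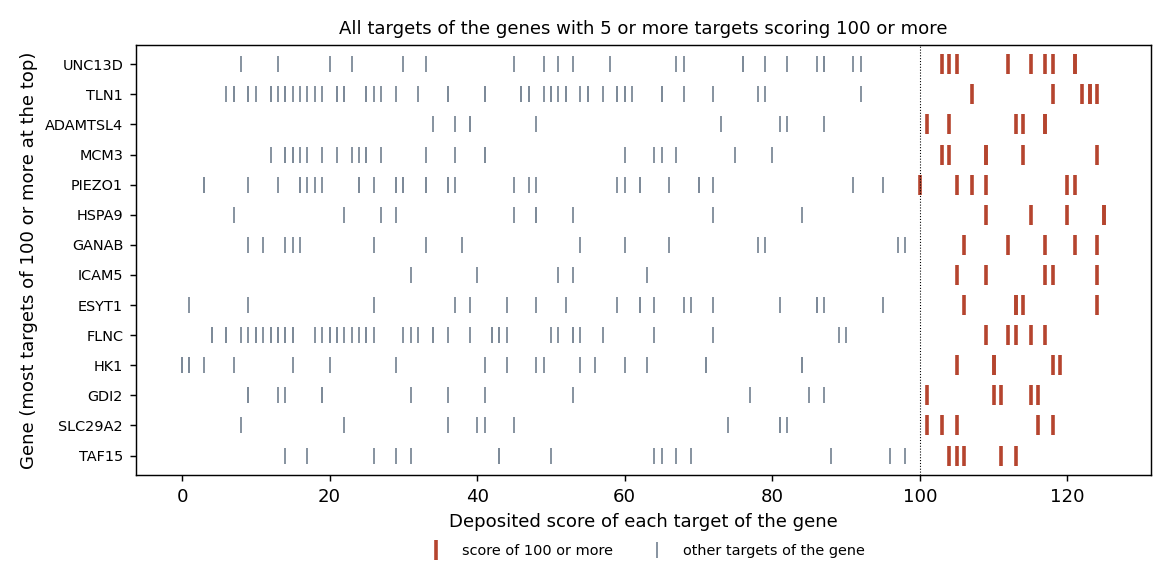
Scores (x axis) of every listed target of the genes with 5 or more high scores (y axis, one row per gene), with targets at 100 or more marked apart from the others. Each gene has targets on both sides of the threshold, and HK1 reaches down to 0.

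Gene lists were read for how many of the genes with a target held a high score, beside 5.41% of all genes. The chaperone list had 12 of 14 genes, with 136 high scores per 1000 targets, against 4.59 per 1000 over all genes. Besides HSPA9 it included the chaperonin subunits CCT2 (103, 117 and 112) and CCT6A (115, 116 and 115), and HSP90B1 (125). TCP1 and PDIA6 held none, with highest scores of 82 and 86. The aminoacyl-tRNA synthetases, which charge tRNAs, had 12 of 15 genes, with AARS, MARS and TARS at 3 each and CARS, GARS and LARS at none. The DNA replication list had 8 of 12 genes, and MCM6, MCM7, PCNA and POLE stayed between 54 and 98 at their highest. The list of RNA-binding and splicing proteins had 12 of 20 genes. U2AF2, the subunit of U2AF that binds the pyrimidine stretch, had 125, 121 and 125, and SRSF3, a splicing regulator, had 123, 109 and 116. PRPF8 at the core of the spliceosome reached 93 and SF1, the first protein to bind the branchpoint, reached 82.

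The glycolysis list had 6 of 10 genes, translation factors 4 of 7, the cytoskeleton list 3 of 4 and the proteasome list 12 of 25, where PSMB3 had 103, 100 and 125. Only 6 of 79 cytosolic ribosomal protein genes were given a target. The design left out regions of high K562 transcription. Whether the other genes had no listed target or failed the length match was not tested, here or for the snoRNA hosts below. RPL23A (103) and RPS3A (123) held 1 each, and RPL7, RPL17, RPL21 and RPS10 held none, with highest scores from 70 to 96. Among the erythroid genes, 3 of 15 with a target held a high score, TFRC with 4 and ANK1, the ankyrin of the red cell membrane, with 1 (119) among them. Those with none ranged at their highest from 0 in BCL11A to 80 in EPB41. The collagens had no high score (0 of 41 genes and 3123 targets), with a highest score of 42 in COL6A5. The HLA genes (0 of 9, with HLA-E reaching 99) and the snoRNA hosts (0 of 2) had none either. Only 2 of 25 snoRNA host genes could be given a target. These 2 lists are too small to be set apart from the 5.41% of all genes. The keratins had 2 of 52 (3.85%), near that share. These were KRT10 (108) and KRT8, which stood just above 100, and no other keratin exceeded 8. No test was made of any list, since the lists were chosen with earlier results of these data known.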

How the data were processed

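The authors designed probes for 100 nt ends of introns in GENCODE release 12, per the labels' protocols, and left out exon overlaps and regions of high transcription in public K562 data, and the array maker left out repeats. The submitters' processing notes name hg19, Bowtie2, TopHat2 and bedtools without a role. The deposited score of each interval is a whole number of unstated meaning and normalization, so it was handled as a score only. The other deposited values are interval starts and ends in bases, given here 1-based. No value per library was used, so depth is unknown and no error applies.

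Targets of chromosomes 1 to 22 scoring at least 100 were set beside the other autosomal targets by counts, shares and medians, with no test, since the score chose them. The members and gene lists were chosen with earlier results of these data known. Groups linked targets at most 100 kb apart. Each GENCODE release 29 gene, with the introns of all its transcripts pooled, was placed where most of its intron edges fell on target edges of its chromosome. At least 5 edges, hence 4 distances between them, had to match, not necessarily adjacent ones. A target with at least 1 matching edge received the gene, and a target that several genes claimed received none. The listed span of an intron longer than 100 nt was 1 nt shorter than the intron. A sequence printed from such an intron can thus hold 1 base outside the interval given. Of 17387 neighbouring pairs of placed genes, 99.62% kept the annotation's order, and a placed gene matched a median 13 edges, against 3 at its second-best place. Intron sequences came from GENCODE release 29 (GRCh38) transcripts that retain the intron, so they may differ from hg19 at single bases. Only the printed sequences were limited to introns within coding spans. The text names the 15 largest groups, the 25 genes with the most high scores, ties by summed score, the first 10 targets at the highest score, the 3 densest and 3 sparsest chromosomes and the gene lists, apart from a few genes that are not reported here. Introns printed as sequence, isolated targets, runs and large breaks were picked after their values were seen. Alternatives were other thresholds, linking distances, windows, width classes, match lengths and transcript sets. The software was pandas 2.3.3 and numpy 2.4.6 under Python 3.11.15, with figures from matplotlib 3.10.9.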

Additional observations from a re-analysis of the deposited data

How the results depend on the processing

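The number of high scores was 2698 at a threshold of 90, 1014 at 110 and 356 at 120. Counting 90 to 110 nt as full width gave 82.1% of high scores. The share in groups of 3 or more was 23.1% with a linking distance of 10 kb, 79.1% with 1 Mb, 58.9% at a threshold of 90 and 31.4% at 110. The 10 fullest windows of 500 kb held 7.26%. The share beside a missing number was 16.6% counting only the place directly before, 16.3% only directly after, and 26.2% at a threshold of 90. The share given a gene was 79.1% with at least 3 matching distances, 72.0% with 6, and 80.9% when the gene with the greatest number of matching edges was taken. This last choice, and the match settings applied to the 3′ share, were made after seeing the data. Of all high scores with a gene, whole introns included, 50.6% were 3′ ends, and 64.0% among those of full width. Of 37 alternative values, 21 moved by less than the counting interval or 1.5 times. No paired analysis was possible because the list holds no value per library, and for the same reason no replicate could be left out.

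The score has no stated meaning, no error and an unknown depth, so no difference between single scores can be judged. Near-identical copies, overlapping genes and the unmatched 337 targets limit what gene counts show, and short or single-intron genes rarely reach 5 matching edges.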
